A study of Mus musculus with 8 samples.

Results

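The genes that drive mitochondrial fusion and fission were examined in mouse brown adipose tissue (BAT) after thoracic aortic constriction (TAC) or sham surgery (Sham). TAC is an operation in which the aorta is narrowed so that the left ventricle pumps against a higher pressure. The genes are Mfn1, Mfn2, Opa1, Oma1, Yme1l1, Dnm1l, Fis1, Mff, Mief1 and Mief2, and their members on the array were all probes other than controls whose RefSeq transcript belongs to one of these symbols. These were 15 probes for 10 genes, of 55681 probes and 21154 named genes on the array. All 15 probes were well above background on 7 of 7 arrays, so each was among the 33378 probes tested.

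Both groups were male C57BL/6NCrSlc mice, for which the labels give no genotype, kept at 23 °C on normal chow, operated on at 11 weeks of age and sampled at 13 weeks. By the labels there were 4 Sham and 4 TAC samples, and total RNA of each BAT sample was labelled with the dye Cy3 and hybridized to its own one-colour Agilent array. The interval after surgery is 2 weeks in the source name, which matches these ages, and 4 weeks in the description line. Scanner intensities were used for the 4 TAC arrays and for Sham replicates 2 to 4, 7 arrays in all, and a deposited table holds all 8. Levels below are log2 intensities relative to the 75th percentile of the same array, on which 1 unit is a 2-fold change. They are compared between arrays for one probe and never between probes. TAC replicate 1 stood apart from the other arrays over all probes, at 89.9 on the first principal component of the table against -32.5 to 4.54 for the rest, so results are also given without it. The Sham arrays occupied the first row of the slide and the TAC arrays the second, so slide row and surgery cannot be told apart.

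Mitochondria join and divide through dynamin-like GTPases. The mitofusins Mfn1 and Mfn2 fuse the outer membranes, and Opa1 fuses the inner membranes and keeps cristae closed. The proteases Oma1 and Yme1l1 cut Opa1 into short forms, with Oma1 acting under stress. Fission is carried out by the dynamin Dnm1l (Drp1), which is recruited from the cytosol by the outer membrane proteins Mff, Mief1 (MiD51), Mief2 (MiD49) and Fis1. Brown adipocytes are dense in mitochondria, and adrenergic stimulation of these cells is known to fragment their mitochondria through Dnm1l.

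The promoter windows of 3 genes are shown here because the data turn on them. Mff had the largest difference between the groups, Opa1 joins the inner membranes and had a lower mean after TAC on both probes, and Mfn1 carried the value that stood furthest from its group. They were taken from RefSeq (GRCm38.p6), run from 250 bases before to 50 bases after an annotated transcription start, and all 10 genes had at least 1 such window. The Mfn1 window is chr3:32529232-32529531 on the plus strand, the Opa1 window chr16:29579084-29579383 on the plus strand and the first of the 2 Mff windows chr1:82724640-82724939 on the plus strand. Capitals mark the match to a motif of nuclear respiratory factor 1 (NRF1) in Opa1 and to one of GA-binding protein (GABP) in Mfn1.
Mfn1: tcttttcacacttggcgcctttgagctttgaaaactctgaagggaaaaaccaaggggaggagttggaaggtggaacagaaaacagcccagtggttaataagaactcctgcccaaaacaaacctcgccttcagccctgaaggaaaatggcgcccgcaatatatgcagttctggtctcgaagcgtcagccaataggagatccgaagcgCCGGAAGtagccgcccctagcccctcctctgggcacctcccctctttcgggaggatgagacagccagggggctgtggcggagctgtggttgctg
Opa1: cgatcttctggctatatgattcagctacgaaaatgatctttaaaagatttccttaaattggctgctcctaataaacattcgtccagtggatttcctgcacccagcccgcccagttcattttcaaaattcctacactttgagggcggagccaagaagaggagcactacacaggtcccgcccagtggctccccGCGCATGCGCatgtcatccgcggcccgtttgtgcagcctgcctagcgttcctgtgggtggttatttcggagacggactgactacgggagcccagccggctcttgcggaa
Mff: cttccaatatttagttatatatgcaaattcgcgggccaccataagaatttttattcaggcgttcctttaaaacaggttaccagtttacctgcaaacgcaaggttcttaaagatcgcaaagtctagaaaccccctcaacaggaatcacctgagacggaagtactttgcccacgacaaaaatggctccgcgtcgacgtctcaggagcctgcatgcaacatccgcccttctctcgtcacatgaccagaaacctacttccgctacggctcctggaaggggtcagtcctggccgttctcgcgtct

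NRF1 and GABP are transcription factors known for nuclear genes of mitochondrial proteins. All motifs were searched on both strands, and none of them contains another. The NRF1 motif, a pair of GCGC blocks with A and any base between them, was found in the windows of Opa1 and Oma1, 2 of the 10 genes, and in 5.19% of 27025 genes with a window. The letters CCGGAAG of GABP were found in 5 of the 10 genes (Mfn1, Yme1l1, Dnm1l, Fis1 and Mief1) and in 9.93% of all genes. The letters AAGGTCA of oestrogen-related receptors and AAGATGGCG of Yin Yang 1 were found in 0 of the 10 and in 5.38% and 1.64% of all genes. These are matches of letters, and the Mff window held none of the 4.

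No probe of these genes passed an adjusted p of 0.05 in limma's moderated test, and neither did any of the 33378 probes, so 0% were called in either direction. Most differences nevertheless ran one way. By the brightest probe of each gene, 9 of 10 genes had a lower mean after TAC and 1, Mfn1, a higher one, with a median difference of -0.10 on the log2 scale. This count was 8 of 10 with normexp background correction, where Yme1l1 was higher too, and 8 of 10 with quantile normalization, where Mfn2 was higher and the median was -0.037 (all probes -0.017). Over all probes tested, 56.6% were lower after TAC and the median difference was -0.036. At an unadjusted p under 0.05, 2 of the 10 genes (Oma1 and Mff) were lower and 0 were higher, beside 8.61% lower and 4.24% higher of all probes. With the 8 arrays of the table, again 9 of 10 genes were lower (57.7% of all probes), the median was -0.095, and the 2 genes at an unadjusted p under 0.05 were Mff and Mief2, both lower, beside 9.57% lower and 4.64% higher of all probes.

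**Figure D1:**
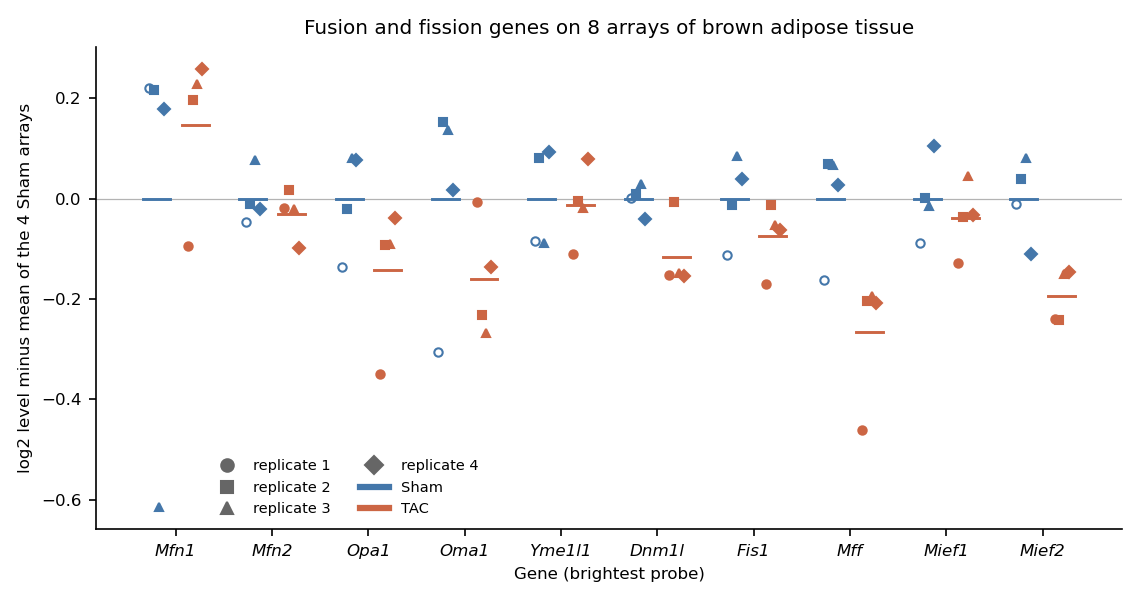
Level of each gene's brightest probe on the 8 arrays of the deposited table, as log2 level minus the mean of the 4 Sham arrays. Points are arrays (Sham replicate 1, which has no scanner values here, is an open circle) and short bars are group means. TAC replicate 1 was the lowest point for Opa1 and Mff among others, Sham replicate 3 was far below every other array for Mfn1, and for Mff and Mief2 all TAC points lay below all Sham points.

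Mff, the receptor that recruits most of the fission dynamin to the outer membrane in many cells, had the largest difference of the 10 genes. Its level was 3.86, 3.87 and 3.83 on the 3 Sham arrays and 3.34, 3.61, 3.62 and 3.61 on the 4 TAC arrays. Every TAC array lay below every Sham array, and 3 of the TAC arrays were nearly equal while TAC replicate 1 was lower still. The mean was 3.85 ± 0.0228 (SD, n = 3) in Sham and 3.54 ± 0.136 (SD, n = 4) in TAC, a difference of -0.31 (SE 0.0974, 95% confidence interval -0.54 to -0.080) or -19.3% in intensity. The unadjusted p of limma was 0.0153 and its adjusted p 0.301. The exact permutation test over the 35 splits of the arrays gave a two-sided p = 0.0286, the smallest it can give. In the table Sham replicate 1 was at 3.83 and the other Sham arrays at 4.02 to 4.06, against 3.53 to 3.80 for TAC. The groups still did not overlap, and the difference was -0.27 (adjusted p = 0.286 in limma). Without TAC replicate 1 it was -0.24 (unadjusted p 0.0112, adjusted p 0.256 in limma).

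Mief2, another receptor of the dynamin, was at -0.52, -0.46 and -0.66 in Sham and at -0.79, -0.77, -0.69 and -0.68 in TAC. All TAC arrays were below all Sham arrays, though the highest TAC array and the lowest Sham array differed by little. The difference was -0.19 (SE 0.0855, adjusted p = 0.417 in limma), with an exact permutation p of 0.0286. In the table it was -0.19 too, with no overlap and an adjusted p of 0.304 in limma. Its relative Mief1 was at 1.14, 1.14 and 1.25 in Sham and at 1.02, 1.12, 1.20 and 1.13 in TAC. These ranges overlapped, and the difference of -0.056 had a 95% confidence interval of -0.25 to 0.14 (adjusted p = 0.791 in limma).

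Fis1, an outer membrane adaptor, had 2 probes. The brighter was at 5.57, 5.68 and 5.63 in Sham and at 5.42, 5.59, 5.55 and 5.55 in TAC, and the groups overlapped through TAC replicate 2. The difference was -0.10 (SE 0.0817, adjusted p = 0.621 in limma). The dimmer probe was at -1.17, -1.06 and -1.17 in Sham and at -1.56, -1.19, -1.42 and -1.21 in TAC, so its groups did not overlap on the scanner arrays, with a difference of -0.21 (adjusted p = 0.474 in limma) and an exact permutation p of 0.143. In the table they did. The 2 probes had a Pearson r of 0.899 over 7 arrays, given as a description.

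Dnm1l, the fission dynamin itself, was at 3.01, 3.05 and 2.97 in Sham and at 2.86, 3.02, 2.87 and 2.88 in TAC. TAC replicates 1, 3 and 4 were below all Sham arrays, and TAC replicate 2 lay within the Sham range. The difference was -0.10 (SE 0.0800, 95% confidence interval -0.29 to 0.085, adjusted p = 0.598 in limma), or -6.95% in intensity, and the exact permutation p was 0.114. With the 8 arrays it was -0.12, with an exact permutation p of 0.0571 over 70 splits. The 5 genes of the dynamin and its receptors had differences between -0.31 and -0.056, with a median of -0.10 and of -0.088 without TAC replicate 1. All 5 were below 0, beside 56.6% of all probes, and none passed an adjusted p of 0.05 in limma.

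Opa1 had 2 probes that both had a lower mean after TAC. The brighter was at 4.72, 4.83 and 4.83 in Sham and at 4.40, 4.67, 4.67 and 4.73 in TAC. The groups overlapped only through TAC replicate 4, which lay just above Sham replicate 2, and the difference was -0.18 (SE 0.104, adjusted p = 0.502 in limma). The dimmer probe was at 3.62, 3.61 and 3.47 in Sham and at 3.17, 3.40, 3.34 and 3.37 in TAC. Here the highest TAC level was below the lowest Sham level, with a mean difference of -0.25 (SE 0.0919, 95% confidence interval -0.46 to -0.030), with an exact permutation p of 0.0286 and an adjusted p of 0.349 in limma. Sham replicate 1, which only the table holds, was at 3.48 for this probe against 3.66 to 3.82 for the other Sham arrays and 3.36 to 3.57 for TAC. It fell inside the TAC range, and the difference became -0.19 (adjusted p = 0.414 in limma).

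Of the proteases of Opa1, Oma1 was at -0.95, -0.95 and -1.07 in Sham and at -1.10, -1.31, -1.35 and -1.21 in TAC. The scanner groups did not overlap, although TAC replicate 1 was close to Sham replicate 4. The difference was -0.25 (SE 0.0936, adjusted p = 0.349 in limma), and the exact permutation p was 0.0571. Without TAC replicate 1, the highest TAC array here, it was -0.30 (unadjusted p 0.00999, adjusted p 0.249 in limma). In the table Sham replicate 1 was at -1.21, below every TAC array, while the other Sham arrays were at -0.75 to -0.88, and the difference was -0.16 (adjusted p = 0.566 in limma). Yme1l1 was at -0.77, -0.92 and -0.74 in Sham and at -0.95, -0.83, -0.85 and -0.74 in TAC. The groups overlapped over most of their range and the difference was -0.030, with a 95% confidence interval of -0.24 to 0.18 (adjusted p = 0.903 in limma).

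Mfn2, the other mitofusin, had 3 probes with differences near 0. Its brightest probe was at 4.74, 4.84 and 4.74 in Sham and at 4.74, 4.79, 4.75 and 4.68 in TAC. The groups overlapped, with a difference of -0.035 (SE 0.0769, 95% confidence interval -0.22 to 0.15, adjusted p = 0.865 in limma). The other 2 probes both differed by -0.031. These 3 probes moved little over the arrays, with SDs of 0.0357 to 0.0589 within groups, and their Pearson r with each other over 7 arrays was 0.0885 to 0.363.

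**Figure D2:**
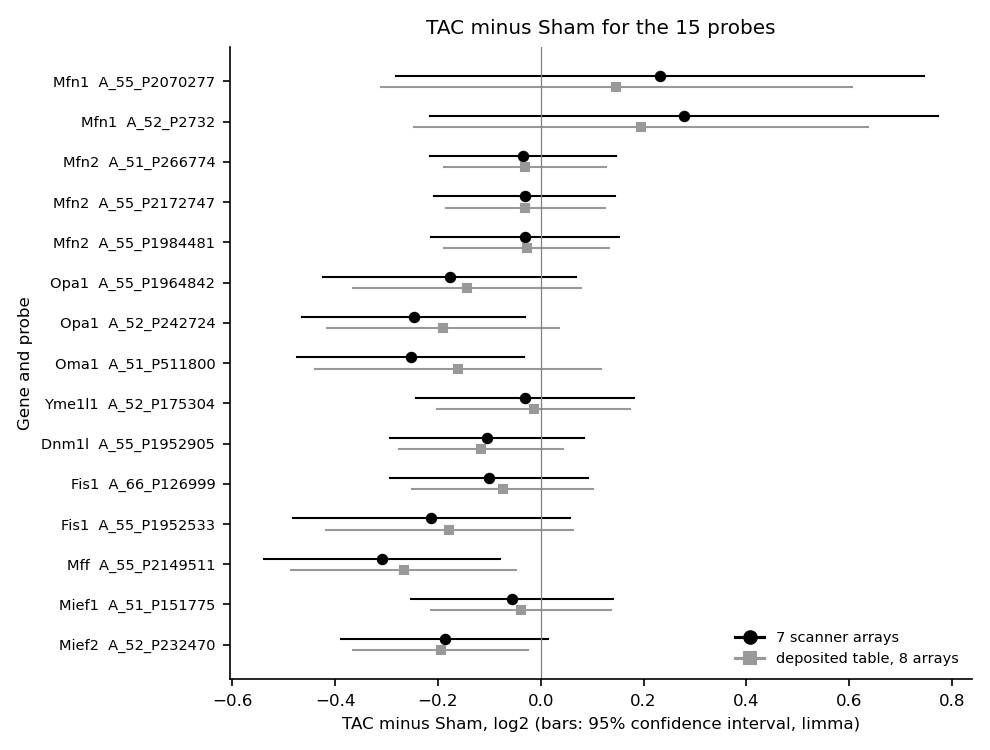
TAC minus Sham on the log2 scale with its 95% confidence interval from limma for all 15 probes, from the 7 scanner arrays (black circles) and the table of 8 arrays (grey squares). Of the black intervals, those of Mff, Oma1 and 1 Opa1 probe lay wholly below 0, and of the grey ones those of Mff and Mief2; the Mfn1 intervals were the widest.

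Counted over the 15 probes, 13 had a lower and 2 a higher mean after TAC, the 2 being those of Mfn1. On the scanner arrays, the TAC levels lay wholly below the Sham levels for 5 of the 15 probes (Opa1, Oma1, Fis1, Mff and Mief2, 1 each), beside 10.7% of 33356 probes. With Sham replicate 1 in the table it was 2 of 15 (Mff and Mief2), beside 6.29% of 33378. No probe of these genes was above Sham on every TAC array, beside 5.35% on the scanner arrays and 3.52% in the table.

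These counts moved with a pair of arrays. TAC replicate 1 was the lowest TAC array for 11 of the 15 probes, and for 45.0% of all probes. The median level of the 10 genes relative to the Sham mean was -0.15 on TAC replicate 1 and -0.043, -0.10 and -0.088 on TAC replicates 2 to 4, against 0.0033, 0.039 and -0.010 on the Sham arrays. The 4 TAC arrays were below these 3 Sham arrays by this median, with TAC replicate 1 furthest. With Sham replicate 1 in the table, again relative to Sham replicates 2 to 4, the groups were not separate, since Sham replicate 1 was at -0.12 and TAC replicates 1 to 4 were at -0.16, -0.058, -0.11 and -0.11. Without TAC replicate 1, 8 of 10 genes were lower, by a median of -0.076 (all probes -0.019). Sham replicate 1 was the lowest Sham array for 9 of the 15 probes in the table, and for 36.2% of all probes.

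Some of the cell type markers moved with TAC replicate 1. The mean of 8 brown adipocyte markers relative to the Sham mean was -1.67 on it, -0.77 to -0.037 on TAC replicates 2 to 4 and -0.27 to 0.28 in Sham. All 8 had a lower mean after TAC (56.6% of all probes), and 7 of 8 in the table (57.7% of all probes). Among them Ucp1, the uncoupling protein of brown fat, differed by -0.61 (adjusted p = 0.333 in limma). For 8 markers of macrophages and other myeloid cells the mean was 1.59 on TAC replicate 1. It was -0.39 to -0.20 on TAC replicates 2 to 4 and -0.19 to 0.15 in Sham. Of these markers Cd14 alone was not highest on TAC replicate 1, at 1.13 against 1.33 on TAC replicate 2. The 3 of 6 lymphocyte markers that were tested averaged 0.999 on TAC replicate 1. They averaged -0.41 to -0.094 on TAC replicates 2 to 4 and -0.21 to 0.12 in Sham. Cd3g and Cd8a, the latter well above background on 5 of 7 arrays, were highest on TAC replicate 1. Cd3e was not, at 1.08 against 1.17 on TAC replicate 2 and 1.12 on Sham replicate 3. Beside 56.6% of all probes with a lower mean, all 10 skeletal muscle markers had a higher mean after TAC, by a median of 1.04. Of them 0 had an unadjusted p under 0.05 in limma, beside 4.24% higher of all probes. Their array means were 1.61, 1.09, -0.47 and 1.49 in TAC and -0.82 to 0.83 in Sham, so that they did not set TAC replicate 1 apart. In the table, relative to Sham replicates 2 to 4, Sham replicate 1 was at 0.39 for myeloid and 0.68 for lymphocyte markers. It was at -0.33 for brown adipocyte, 0.72 for muscle, 0.070 for endothelial and -0.91 for erythroid markers. The 3 endothelial markers averaged 0.036 on TAC replicate 1 and -0.046 to 0.047 in Sham. The 3 erythroid markers averaged 0.21 against -0.32 to 0.58, so each of these sets was within the range of Sham replicates 2 to 4. The part of these differences in the levels of the fusion and fission genes was not tested, and in whole tissue fewer cells of a type and less RNA per cell cannot be told apart. All 8 markers of the labelled tissue were well above background on 7 of 7 arrays.

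Mfn1, the mitofusin that tethers outer membranes, was the exception among the 10 genes, and its higher mean after TAC rested on 1 Sham array. Its brighter probe was at 3.49, 2.68 and 3.47 on Sham replicates 2 to 4 and at 3.19, 3.50, 3.52 and 3.56 in TAC. Sham replicate 3 was the lowest of all arrays, and 2 of the 3 Sham arrays lay within the TAC range. The difference was 0.23 (SE 0.218, 95% confidence interval -0.28 to 0.75, adjusted p = 0.667 in limma), and without Sham replicate 3 it was -0.036. With the 8 arrays of the table it was 0.15 (adjusted p = 0.762 in limma). The second probe was at 3.13, 2.35 and 3.04 in Sham and at 2.83, 3.23, 3.19 and 3.22 in TAC. It showed the same order of low arrays, with a difference of 0.28 (SE 0.210, adjusted p = 0.590 in limma) that was 0.034 without Sham replicate 3. Without that array the brightest probes of all 10 genes had a lower mean after TAC, beside 56.5% of all probes. The median was -0.086 (all probes -0.034), and the count includes Mfn2 at -0.00090 and Mfn1 at -0.036. Only 1 of the 10, Mff, had an unadjusted p under 0.05 in limma, beside 4.90% lower of all probes.

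Sham replicate 3 differed from the mean of Sham replicates 2 and 4 by -0.80 for the brighter probe, or 0.573 of their level, and by -0.73 for the second, or 0.601. In the table, where Sham replicate 1 was at 3.69 and 3.32, the differences were -0.82 and -0.76. Under the other ways of scaling the arrays they ran from -0.85 to -0.70. The 2 probes sit at separate places on the array, row 185 and column 92 and row 74 and column 150, where the local background on Sham replicate 3 was 51 and 39 units under processed intensities of 2889 and 2305. The labels set this sample apart from the other Sham samples in no way other than its number. Neither spot was marked as an outlier or as saturated on any array. The Pearson r of the 2 probes was 0.988 over 7 arrays. TAC replicate 1 was the next lowest array for both.

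The low level of Mfn1 on Sham replicate 3 was shared neither by Mfn2 nor, in size, by the nearest genes with a tested probe. By its brightest probe, Mfn2 was at its highest Sham level on Sham replicate 3. The 4 genes nearest to Mfn1 on its chromosome differed less, while Usp13, further out, differed by as much in the other direction. These were taken in the order of the RefSeq annotation, and genes without a tested probe were skipped. Nearest to Mfn1, Zfp639 on one side differed on Sham replicate 3 from the other Sham arrays by 0.011 and Gnb4 on the other by -0.17. Next beyond them, Pik3ca differed by 0.017 and Actl6a by 0.0083. Of these 4, Gnb4 alone had its lowest level there, at -1.58 against -1.54 to -0.50 on the other arrays. Among the other genes up to 5 places away, differences ran from -0.37 for 4930429B21Rik to 1.26 for a probe of Usp13. The other Usp13 probe differed by 0.82. Some probes of Skil, Ndufb5 and Usp13 were higher on Sham replicate 3 than on every other array. The following counts take the Mfn1 value as their own limit, so that they hold Mfn1 by construction and are a description. Of 33378 probes in the table, 219 (0.656%) lay at least as far below every other array on Sham replicate 3 as the second Mfn1 probe did. The same count was 1596 for TAC replicate 1 and between 74 and 445 for the other 6 arrays. Among the 5210 probes at least as bright on average as the dimmer Mfn1 probe there were 4 such probes on Sham replicate 3, the 2 of Mfn1 and the 2 of Cyp2e1, a cytochrome P450 enzyme that was chosen for mention after its values were seen. Of 3926 genes with at least 2 probes tested, 3 had all of their probes that far below, and the third was Net1.

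**Figure D3:**
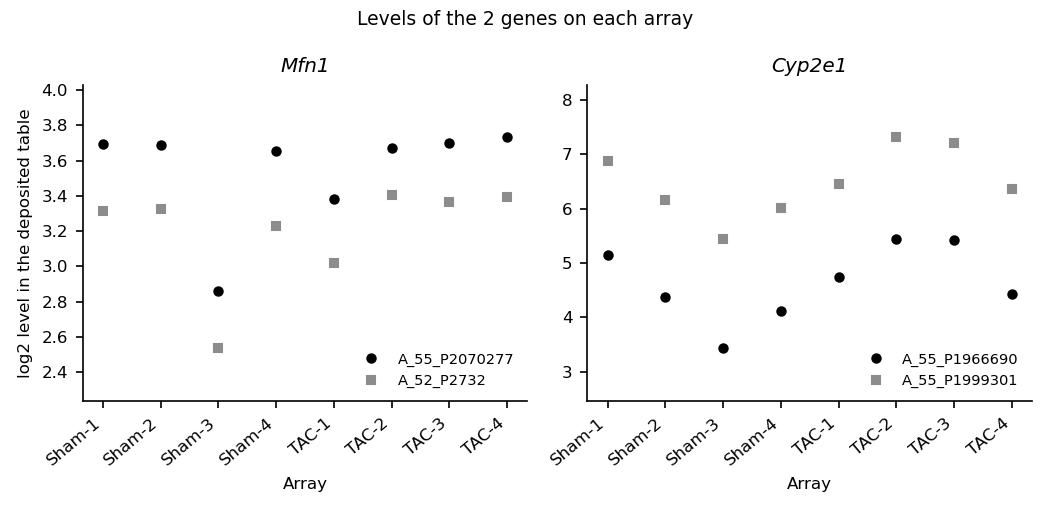
Level of the 2 probes of Mfn1 (left) and of Cyp2e1 (right) on each of the 8 arrays, as log2 level in the deposited table. For both genes both probes were lowest on Sham-3, but the Cyp2e1 probes also ranged widely over the other arrays, while Mfn1 was otherwise low only on TAC-1.

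The 5 genes whose level over the 7 scanner arrays was most like that of Mfn1 were Epgn, Eln, Olfr1280, Mir100hg and Comp, of 12887 genes searched. Their Pearson r ran from 0.941 to 0.974 over arrays that share Sham replicate 3, and from 0.528 to 0.880 with that array left out. Olfr1280, Mir100hg and Comp were well above background on 5, 4 and 6 of 7 arrays. With 7 arrays and so many genes such values are a description only.

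Genes that work with the fusion and fission machinery were taken as 5 lists, and 0 of their genes passed an adjusted p of 0.05 in limma. In the list of cristae junction proteins, which shape the inner membrane together with Opa1, 10 of 11 genes had a lower mean, with a median of -0.19, beside 56.6% of all probes. An unadjusted p under 0.05 was reached by 6 of them, beside 8.61% of all probes, but by 2 (Mtx2 and Chchd3) in the table of 8 arrays, where the median was -0.14. Apoo, a subunit of the MICOS complex, was at 5.31, 5.45 and 5.41 in Sham and at 5.02, 5.05, 5.07 and 5.15 in TAC. On these scanner arrays all of its TAC levels were below all Sham levels, beside 10.7% of all probes. The difference was -0.32 (SE 0.0801, adjusted p = 0.226 in limma). In the table, with Sham replicate 1, it was -0.23 (unadjusted p 0.0747 in limma). Mtx2, a metaxin of the outer membrane, differed by -0.33 (SE 0.108, adjusted p = 0.309 in limma).

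Of the inner membrane proteases and their scaffolds, 9 of 9 genes had a lower mean (56.6% of all probes), with a median of -0.22 and of -0.16 in the table. An unadjusted p under 0.05 was reached by 3 (8.61% of all probes), and by 2 in the table, where Spg7 was not among them. Immp2l, a subunit of the inner membrane peptidase, was at 4.01, 4.18 and 3.99 in Sham and at 3.57, 3.76, 3.59 and 3.75 in TAC. On these scanner arrays its TAC levels lay wholly below its Sham levels, beside 10.7% of all probes. It had the smallest p of these 5 lists there, with a difference of -0.39 (SE 0.0952, unadjusted p 0.00422, adjusted p 0.218 in limma). In the table, with Sham replicate 1, the difference was -0.30 (unadjusted p 0.0437 in limma). Spg7, a subunit of the m-AAA protease, differed by -0.31 (adjusted p = 0.381 in limma).

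Among regulators of the fission dynamin and of fusion, 16 of 17 genes were tested and 14 had a lower mean (56.6% of all probes), with a median of -0.14 and of -0.11 in the table. An unadjusted p under 0.05 was reached by 2 (8.61% of all probes), and by 1, Spire1, in the table. The 2 were Spire1, an actin nucleator with an isoform at mitochondria (-0.53, SE 0.142, adjusted p = 0.256 in limma), and Mtfp1, a protein of the inner membrane that promotes fission (-0.42, SE 0.150, adjusted p = 0.342 in limma). Spire1 was at -0.89, -0.69 and -0.71 in Sham and at -1.56, -1.0, -1.36 and -1.25 in TAC. These scanner levels did not overlap, and 10.7% of all probes were likewise wholly lower in TAC. In the table, with Sham replicate 1, the difference of Spire1 was -0.48. Of the mitochondrial transport genes 4 of 6 had a lower mean (56.6% of all probes), with a median of -0.11. In the table it was 5 of 6 (57.7% of all probes), with a median of -0.093. An unadjusted p under 0.05 in limma was reached by 1, Rhot2, in both (8.61% and 9.57% of all probes). The 2 with the smallest p were Rhot2, a GTPase that couples mitochondria to motors (-0.23, adjusted p = 0.356 in limma), and Mtx3 (-0.18, adjusted p = 0.553 in limma).

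Of the genes that mark mitochondrial content, 7 of 7 had a lower mean (56.6% of all probes), with a median of -0.19, and 0 had an unadjusted p under 0.05 (8.61% of all probes). In the table the median was -0.13. Vdac1, the abundant pore of the outer membrane, differed by -0.25 (adjusted p = 0.414 in limma) and Hspa9, a chaperone of the matrix, by -0.25 (adjusted p = 0.422 in limma). TAC replicate 1 was the lowest array on the mean of each of these 5 lists, at -0.40 for mitochondrial content against -0.13 to -0.12 on TAC replicates 2 to 4. Without it the medians were -0.16 for cristae junction proteins and for proteases, -0.070 for regulators, -0.072 for transport and -0.12 for content. Sham replicate 1 stood at -0.22 for proteases, cristae junction proteins and content alike in the table.

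**Figure D4:**
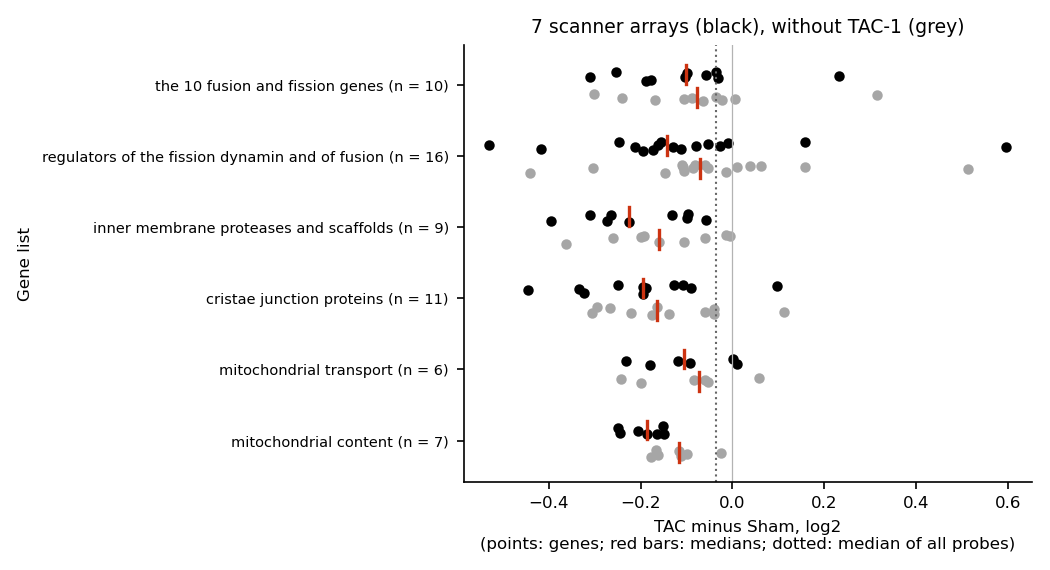
TAC minus Sham on the log2 scale for the 10 fusion and fission genes and the 5 lists beside them, from the 7 scanner arrays (black) and without TAC replicate 1 (grey). Points are genes, red bars are medians and the dotted line is the median of all probes at -0.036; the medians of all 6 sets lay to its left with and without TAC replicate 1.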

How the data were processed

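BAT RNA was labelled and scanned by the authors, who extracted the spots with Agilent Feature Extraction 10.7.1.1 per the labels. The deposited values are background-subtracted intensities on a linear scale, from the scanner for 7 arrays and in a table for 8. By its values, the table holds scanner intensities times a factor per array (99.8 to 99.9% of probes within 1%), with the 75th percentile at 1.002 to 1.004. How the authors made it is not given in the sources used here. Between 54.5 and 64.3% of probes were well above background per array, and the number of arrays limits the precision.

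Controls and outlier spots (134 to 191 per array) were left out, and the log2 of each deposited intensity was taken minus the 75th percentile of its array (452.1 to 604.4 units). A probe was tested if well above background on at least 3 of 7 arrays and measured on at least 2 per group. The moderated test came from limma 3.58.1 (lmFit, eBayes; R 4.3.3), with Benjamini-Hochberg adjustment over 33378 probes and no replicate block, in a script tested on simulated data. Exact permutation tests over arrays were two-sided. The labels do not state that each sample is a separate mouse, so p-values measure the spread between these samples, which may be technical. Symbols came from RefSeq (GRCm38.p6) through transcripts, for 50.3% of probes and 94.1% of those with a RefSeq transcript, and the brightest probe stands for a gene.

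The genes, lists, markers and tests were chosen with earlier results of these data known, and the motifs after the data were seen. Named were all 10 genes with every probe, the 2 genes with the smallest p of each list, the 5 genes most like Mfn1 by Pearson r (SD of at least 0.1) and the markers a result needed. Other settings were normexp background correction (offset 50), median centring, quantile normalization, the table, other filters on dim probes, outlier spots kept, an intensity trend, array weights, the methods' t-test, a replicate block, single arrays left out and the mean of a gene's probes.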

Additional observations from a re-analysis of the deposited data

Results flagged for a closer look

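Of 30 groups of 4 arrays, 1 probe and 1 treatment each, 5 held an array whose gap to the nearest other array exceeded Dixon's 95% critical value, a share of the range that chance exceeds in about 1 of 20 groups. Of these, 2 concern Mfn1 on Sham replicate 3, a value known when the genes were chosen, so they are a description. The gap for Sham replicate 3 was 0.951 of the range of the 4 Sham arrays by the brighter probe (2.86 against 3.65 to 3.69 in the table) and 0.880 by the second (2.53 against 3.23 to 3.32). By the second Mfn1 probe the gap for TAC replicate 1 was 0.893 of the TAC range (2.83 against 3.19 to 3.23 by scanner values, as in the rest). For Mff it was 0.972 for the same array (3.34 against 3.61 to 3.62). For Dnm1l the gap was 0.900, above the other arrays, for TAC replicate 2 (3.02 against 2.86 to 2.88).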

How the results depend on the processing

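Of 424 differences of the 15 probes under 29 alternatives, 410 kept their direction and 14 changed sign. Of the 420 that came with a test, 0 passed an adjusted p of 0.05. The changes of sign were of Yme1l1 and Mfn2, whose differences lay near 0, and of the brighter Mfn1 probe without Sham replicate 3. The cause was not tested. Yme1l1 became 0.014 with normexp background correction and 0.0050 with a replicate block, and the Mfn2 probes became 0.056, 0.054 and 0.039 with quantile normalization. With 1 array left out on the scanner arrays, Yme1l1 ran from -0.086 to 0.0050, and in the table it became 0.013, 0.017 and 0.019 without Sham replicate 2, Sham replicate 4 and TAC replicate 1. Over both sets with 1 array left out, the dimmest Mfn2 probe ran from -0.054 to 0.0012 (0.00049 without Sham replicate 2 on the scanner arrays), the brighter Mfn1 probe from -0.058 to 0.37 (-0.036 and -0.058 without Sham replicate 3), Mff from -0.33 to -0.20, Mief2 from -0.24 to -0.14, Oma1 from -0.30 to -0.11 and the dimmer Opa1 probe from -0.29 to -0.14. Over all probes, 1 passed an adjusted p as lower with normexp and 1 with array weights. With 1 array left out between 0 and 6 passed as higher and between 0 and 1 as lower on the scanner arrays, and up to 14 and 2 in the table, each maximum without TAC replicate 4. Without TAC replicate 2 the table gave 1 higher probe. At an unadjusted p under 0.05, the 1415 higher and 2875 lower probes became 853 and 1637 without Sham replicate 3 and 1549 and 2650 by the methods' t-test, which gave 0 after Benjamini-Hochberg. Correlations of same-numbered deviations were -0.026 to 0.0016 on the scanner arrays, which lack Sham replicate 1. In the table they were 0.27 for replicate 1, whose best match was TAC replicate 1, and 0.020 to 0.057 for the others. Whether same-numbered arrays form pairs was not settled. The replicate block changed no call of the 15 probes, since none of them was called with it or without it.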
